A study of Mus musculus with 6 samples.

Results

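The 9 genes of the mouse Hoxd cluster (Hoxd13, Hoxd12, Hoxd11, Hoxd10, Hoxd9, Hoxd8, Hoxd4, Hoxd3 and Hoxd1) were followed in mouse embryonic fibroblasts (MEFs) by RNA sequencing. They were chosen by name, with their difference between the genotypes already known, so their values and calls between genotypes are given as a description, without p-values. In the table of raw fragment counts they fell into 7 of 51499 loci, since the authors' assembly joined Hoxd10 with Hoxd11, and Hoxd3 with Hoxd4 and the gene model Gm28230. The gene model Gm28309 lies within the span of the Hoxd10/Hoxd11 locus, and its exons entered the length used for that locus. The counts of a joined locus cannot be divided among its genes.

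The cells were MEFs from mice with loxP-flanked Yme1l alleles, immortalized with SV40 large T antigen, and they were either wild type (WT, Yme1l fl/fl) or Yme1l-/-. Yme1l encodes a protease of the mitochondrial inner membrane. Poly(A) RNA was sequenced from 3 cultures of each genotype. Cells were transduced with Cre, and single clones were then grown and identified by genotype as WT or Yme1l-/-. The WT cells were thus clones too, and genotype and clone cannot be told apart. Whether the 3 cultures of a genotype came from separate clones is not given in the sources used here. Any p-value therefore measures the spread between these cultures. The mouse strain, embryonic age and body region from which the MEFs came are likewise not given.

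HOX proteins are homeodomain transcription factors whose genes lie in 4 clusters, and the order of the genes along a cluster follows the order of their expression along the body axis. Genes at the posterior end of Hoxd, from Hoxd9 to Hoxd13, between them act in the limb, the genital tubercle and the posterior trunk. Hoxd1 to Hoxd8 lie at the anterior end of the cluster. Fibroblasts in culture keep a Hox expression pattern that reflects where in the body they arose.

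All 9 genes are on the plus strand of chromosome 2 (GRCm38, the build the authors mapped to as mm10; GENCODE gene models), within 96.8 kb. Hoxd13 comes first (74668310 to 74671599), followed by Hoxd12 (74675013 to 74677705), Hoxd11 (74679557 to 74687016), Hoxd10 (74691924 to 74695105), Hoxd9 (74697727 to 74700208) and Hoxd8 (74704615 to 74707933). The models of Hoxd3 (74711927 to 74748442) and Hoxd4 (74711929 to 74729160) overlap, and Hoxd1 (74762980 to 74765142) closes the cluster.

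The promoters of Hoxd13, Hoxd8 and Hoxd4 are printed. Hoxd13 was the most abundant Hoxd transcript in WT, and Hoxd8 and Hoxd4 belong to loci that were higher in Yme1l-/- cells. The locus of Hoxd4 also holds Hoxd3, whose promoter is not printed. The RefSeq start of Hoxd4 lies inside its GENCODE model (74711929 to 74729160), so this need not be the promoter of the transcripts that were higher. Each covers 250 bases before and 50 bases after the RefSeq start (GRCm38.p6, plus strand), at chr2:74667975-74668274 for Hoxd13, chr2:74704365-74704664 for Hoxd8 and chr2:74721728-74722027 for Hoxd4. Capitals mark matches on either strand to the TATA box (TATAAA) and the CCAAT box (CCAAT); adjoining or overlapping matches run together.
Hoxd13: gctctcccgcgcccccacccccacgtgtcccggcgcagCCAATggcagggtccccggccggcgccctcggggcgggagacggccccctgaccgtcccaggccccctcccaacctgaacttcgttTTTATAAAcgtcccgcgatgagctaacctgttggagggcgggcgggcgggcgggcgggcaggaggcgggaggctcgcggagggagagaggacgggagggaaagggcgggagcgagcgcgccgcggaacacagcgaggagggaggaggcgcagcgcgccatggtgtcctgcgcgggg
Hoxd8: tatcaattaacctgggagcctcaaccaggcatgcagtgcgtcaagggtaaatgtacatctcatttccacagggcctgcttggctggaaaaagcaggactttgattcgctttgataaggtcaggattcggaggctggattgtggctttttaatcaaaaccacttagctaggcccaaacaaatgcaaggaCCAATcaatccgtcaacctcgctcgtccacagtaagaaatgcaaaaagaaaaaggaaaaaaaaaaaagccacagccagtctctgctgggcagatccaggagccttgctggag
Hoxd4: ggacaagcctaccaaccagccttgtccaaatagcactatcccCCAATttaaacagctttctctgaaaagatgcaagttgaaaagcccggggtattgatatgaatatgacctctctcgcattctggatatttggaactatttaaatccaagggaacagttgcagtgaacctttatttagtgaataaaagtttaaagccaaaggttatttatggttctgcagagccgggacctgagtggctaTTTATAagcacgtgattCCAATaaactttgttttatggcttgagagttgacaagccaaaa

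RefSeq held promoters for all 9 genes, 10 in all because Hoxd11 has a second start. The Hoxd13 promoter was the richest in G and C, at 74.3% with 37 CpG dinucleotides, and the Hoxd4 promoter the poorest, at 39.7% with 4. Hoxd8 had 46.7% and 6 CpG, against medians of 52.7% and 7 over 32851 promoters of the same length. TATAAA was found in the promoters of Hoxd13 (2 overlapping matches, 1 on each strand) and Hoxd4, and in 13.6% of all promoters. CCAAT was found in those of Hoxd13, Hoxd12, Hoxd10, Hoxd8, Hoxd3, Hoxd4 and Hoxd1, and in 37.4% of all. A PBX-HOX sequence (TGATTNAT, 3.22% of all) had 1 match, in the second Hoxd11 promoter, the posterior HOX sequence TTTATGG (2.75% of all) had 2 matches, both in Hoxd4, and the MEIS sequence TGACAG (19.2% of all) had none. A match is a run of letters and not evidence of binding.

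Libraries held 33180867 to 34012520 counted fragments in WT and 34624075 to 49351107 in Yme1l-/- cultures. Yme1l1, the targeted gene, was at 189 ± 5.16 CPM in WT and 39.1 ± 1.34 CPM in Yme1l-/- cultures (counts per 1000000 fragments of the scaled library, mean ± SD, n = 3 throughout), a log2 fold change of -2.27 ± 0.05 (SE; edgeR quasi-likelihood test with Benjamini-Hochberg adjustment, adjusted p = 2.4e-11). Fibroblast markers were abundant in both genotypes, with a sum over 15 genes of 14762 to 15386 CPM in WT and 8659 to 9287 CPM in Yme1l-/- cultures, although Thy1 had 4, 6 and 4 fragments in WT and 0 in each Yme1l-/- culture. Over all 13867 loci tested, 67.7% were called (adjusted p under 0.05), 33.6% higher and 34.1% lower, and the counts of each gene list stand beside these shares. Of the 13 fibroblast markers that were tested, 11 were lower and 1 higher in Yme1l-/- cells; they included Vim (log2 fold change -1.33 ± 0.05, adjusted p = 3.55e-09) and Postn (-2.41 ± 0.21, adjusted p = 1.34e-06), whereas the calls of Col3a1 (-2.48 ± 0.65, adjusted p = 0.0269) and Dcn (-2.70 ± 0.87, adjusted p = 0.0422), both highest in WT culture 2, were lost without any 1 of the Yme1l-/- cultures and in the fit with a replicate block, and that of Dcn also without the filter on low counts; without WT culture 2 they were -1.63 for Col3a1 (adjusted p = 2.23e-08) and -1.47 for Dcn (adjusted p = 0.000637). The epithelial list (9 genes) summed to 142 to 159 CPM in WT and 2.83 to 3.71 CPM in Yme1l-/- cultures, and all 3 tested members were lower, Krt18 by at least 373-fold (adjusted p = 1.64e-11), Krt19 (-5.45 ± 0.09, adjusted p = 4.88e-12) and Epcam (-3.83 ± 0.33, adjusted p = 1.49e-06), while Cdh1 had at most 12 fragments in any culture. The neural list (7 genes) had 6 loci in the counts, with none found for Tubb3. These summed to 342 to 354 CPM in WT and 97.8 to 102 CPM in Yme1l-/- cultures, with 3 of 4 tested loci lower. Sox2 was lower by at least 286-fold (adjusted p = 8.2e-09), with 846, 913 and 660 fragments in WT and 0 in each Yme1l-/- culture. The others were Map2 (-1.79 ± 0.11, adjusted p = 1.09e-07) and Nes (-1.70 ± 0.04, adjusted p = 1.02e-10). Endothelial and blood markers (6 genes each) summed to at most 4.93 CPM in any culture, with Emcn, Tie1 and Adgre1 at 0, and 1 of each was tested and higher, Kdr (0.72 ± 0.22, adjusted p = 0.0132, lost without WT culture 3 or without Yme1l-/- culture 2) and Cd68 (1.04 ± 0.14, adjusted p = 4.83e-05). The part of these markers in the Hoxd values below was not tested, and fewer cells of a type and less RNA per cell cannot be told apart in bulk RNA.

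The genotypes differed in which Hoxd genes they expressed. WT cultures carried Hoxd13, Hoxd12, Hoxd10/Hoxd11 and a little Hoxd9, and nearly all of this was missing from Yme1l-/- cultures. Hoxd8 was present in both and 1.84-fold higher in Yme1l-/- cultures, and the Hoxd3/Hoxd4 locus was low in WT and 12.1-fold higher in Yme1l-/- cultures. Of the 7 loci, 6 passed the filter on low counts, and all 6 were called by the fit over all loci, 4 lower and 2 higher, with Hoxd1 untested; for the joined loci the call holds for the locus and not for each gene. The shares over all loci were 67.7% called, 33.6% higher and 34.1% lower. The cultures of the genotypes did not overlap in any of the 6 tested Hoxd loci, nor in 71.9% of all tested loci. These counts follow from how the genes were chosen and carry no weight of their own.

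Hoxd13, the last gene of the cluster to be switched on in the embryo and a regulator of digit and genital development, dominated the WT cells. Its counts were 5823, 5728 and 5500 fragments in WT cultures and 0 in each of the 3 Yme1l-/- cultures. The WT level was 173 ± 4.07 CPM. With 3 fragments per library as the detection floor, Hoxd13 was at least 2019-fold lower in Yme1l-/- cultures. The WT cultures lay close together, with a coefficient of variation of 2.35%, against 1.33% from counting error alone.

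Hoxd12, its neighbour and a partner in limb patterning, was also found in WT cultures only. It had 203, 222 and 221 fragments in WT cultures and 0 in each Yme1l-/- culture. The WT level of 6.56 ± 0.371 CPM made it at least 76.5-fold lower in Yme1l-/- cultures. The coefficient of variation among WT cultures, 5.65%, was under the 6.81% that counting alone gives.

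The locus joining Hoxd10 and Hoxd11, genes that pattern the forearm and lower leg, had 496, 508 and 519 fragments in WT cultures and 0, 1 and 0 in Yme1l-/- cultures. It was at 15.5 ± 0.458 CPM in WT cultures, at least 180-fold above the floor of the Yme1l-/- libraries. The 1 fragment, in Yme1l-/- culture 2, was the only fragment at the loci of the 5 posterior genes in the 3 Yme1l-/- libraries.

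Hoxd9, which acts with its paralogs in the proximal limb and lumbosacral region, was the lowest of the posterior loci. It had 26, 14 and 33 fragments in WT cultures and 0 in each Yme1l-/- culture. This gave 0.741 ± 0.294 CPM in WT cultures and a fold of at least 8.65 lower in Yme1l-/- cultures. The small bound reflects the few WT fragments, and the WT cultures varied by 39.7% of their mean.

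**Figure D1:**
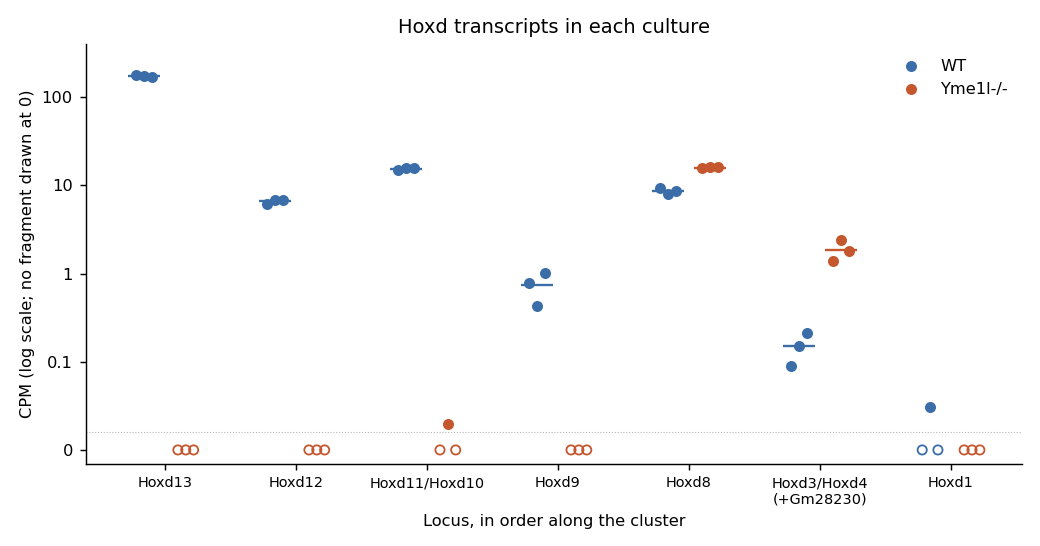
Expression of the 7 Hoxd loci in each culture (CPM, log axis), in order along chromosome 2 from Hoxd13 to Hoxd1. Filled points are single cultures (blue, WT; orange, Yme1l-/-), open points at the bottom are cultures with no fragment, and lines are the means of loci with fragments in all 3 cultures of a genotype; Hoxd13 stood at 168 to 176 CPM in WT and at 0 in every Yme1l-/- culture.

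Hoxd8, the anterior gene nearest to the posterior group, was the sole locus with clear expression in both genotypes. Its counts were 305, 261 and 283 in WT cultures and 543, 813 and 811 in Yme1l-/- cultures. Scaled to library size these were 9.21, 7.97 and 8.67 CPM against 15.5, 16.1 and 15.9 CPM. The ranges did not overlap, and the log2 fold change was 0.88 ± 0.08 (SE). The Yme1l-/- cultures varied by 1.95% of their mean, less than the 3.72% from counting error.

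The locus joining Hoxd3 and Hoxd4, genes needed for the uppermost neck vertebrae and, for Hoxd4, expressed in the hindbrain, had 3, 5 and 7 fragments in WT cultures and 49, 122 and 91 in Yme1l-/- cultures. This corresponded to 0.153 ± 0.0619 and 1.87 ± 0.515 CPM. The log2 fold change was 3.60 ± 0.35 (SE), and the lowest Yme1l-/- culture, at 1.40 CPM, was above the highest WT culture, at 0.214 CPM. Among Yme1l-/- cultures its coefficient of variation was 27.5%, against 10.7% from counting. The gene model Gm28230 shares the locus, so the part of Hoxd3 or of Hoxd4 in the increase cannot be told apart.

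Hoxd1, the most anterior gene, was not detected above the floor in either genotype. Only 1 fragment was counted, in WT culture 2, so no fold was computed. A floor of 3 fragments in a library corresponded to at most 0.0919 CPM in WT and 0.0857 CPM in Yme1l-/- libraries, for counting error only. A 0 can also stand for a locus that was not counted, as Men1 was listed at 0 in all 6 libraries, but each Hoxd locus at 0 in Yme1l-/- cultures had fragments in WT cultures.

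Added together, the 7 loci held 207, 206 and 201 CPM in WT cultures and 16.9, 18.6 and 17.7 CPM in Yme1l-/- cultures. The means were 205 ± 3.23 and 17.7 ± 0.823 CPM. The 5 posterior genes gave 196 ± 3.25 CPM in WT and 0.00661 ± 0.0115 CPM in Yme1l-/- cultures, where 0, 1 and 0 fragments were counted. The loci of the 4 anterior genes summed to more in Yme1l-/- cultures, 17.7 ± 0.813 against 8.78 ± 0.581 CPM, with Hoxd1 contributing 1 fragment in all. Hoxd13 alone made up 83.8 to 85.0% of the Hoxd fragments of WT cultures, Hoxd10/Hoxd11 7.23 to 7.91%, Hoxd8 3.87 to 4.45% and Hoxd12 2.96 to 3.37%. In Yme1l-/- cultures Hoxd8 took 86.9 to 91.7% and Hoxd3/Hoxd4 8.28 to 13.03%.

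**Figure D2:**
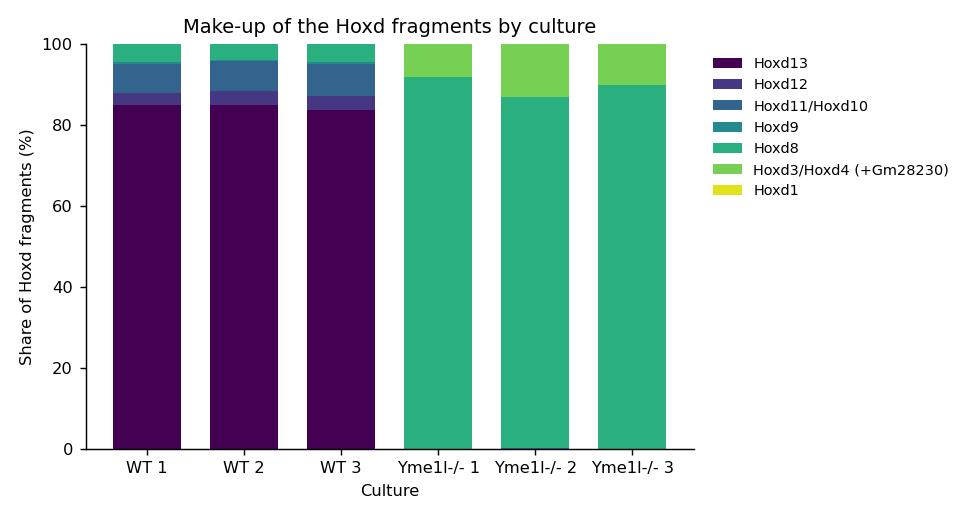
Share of all Hoxd fragments (%) that came from each Hoxd locus, 1 stacked bar per culture. Hoxd13 filled 83.8 to 85.0% of the bar in the 3 WT cultures, and Hoxd8 filled 86.9 to 91.7% in the 3 Yme1l-/- cultures.

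Shares of fragments and CPM are not corrected for gene length, so the order of levels among Hoxd genes was taken per length. By the FPKM values of the authors, 1 combined value per genotype with no error, the order in WT was Hoxd13 (72.6), Hoxd10/Hoxd11 (12.1), Hoxd8 (4.86), Hoxd12 (2.69), Hoxd9 (0.366), Hoxd3/Hoxd4 (0.120) and Hoxd1 (0.0059). In Yme1l-/- cells Hoxd8 came first (7.59), then Hoxd3/Hoxd4 (0.975) and Hoxd10/Hoxd11 (0.00393), with the rest at 0. Counts per kb of GENCODE exon gave the same lead to Hoxd13 in WT, 69.7 ± 1.64 CPM per kb. They put Hoxd8 (3.14 ± 0.227), Hoxd12 (2.59 ± 0.146) and Hoxd10/Hoxd11 (2.54 ± 0.0751) next to each other, and the last pair differed by less than their SD. The rank of the Hoxd10/Hoxd11 locus therefore depended on the scale. The 2 scales differ in the length assigned and in how fragments were counted, and the part of each was not tested. Their rank correlation over the 7 loci in WT was 0.893. Hoxd9 (0.347 ± 0.138) and Hoxd3/Hoxd4 (0.0221 ± 0.00897) came last among the tested loci on the same CPM per kb scale.

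The flanks of the cluster were examined to see how far the loss extended. Within 1 Mb of either end lay 41 other loci, of which 25 had no fragment, 6 were too low to test and 10 were tested. Evx2, a homeobox gene beside Hoxd13 that shares its limb enhancers, had 173, 162 and 195 fragments in WT cultures and 0 in each Yme1l-/- culture. It was at 5.38 ± 0.529 CPM in WT and at least 62.8-fold lower in Yme1l-/- cultures (edgeR quasi-likelihood test, adjusted p = 1.95e-08). The lower coordinate of its locus, taken without regard to strand, lay at -15.3 kb from that of Hoxd13.

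Farther out the changes were small. Lnpk, which encodes a protein of endoplasmic reticulum junctions, was lower in Yme1l-/- cultures (log2 fold change -0.40 ± 0.08, adjusted p = 0.000727), and Mtx2, a component of the mitochondrial outer membrane on the Hoxd1 side, was higher (0.24 ± 0.05, adjusted p = 0.00105). The transcription factor gene Atf2 (-0.47 ± 0.06, adjusted p = 4.13e-05) and the RNA-binding protein gene Hnrnpa3 (-0.48 ± 0.05, adjusted p = 8.41e-06) were also lower. The other 5 did not pass the test, namely Atp5g3 (0.00, adjusted p = 0.98), Nfe2l2 (-0.02, adjusted p = 0.757), Rps6-ps4 (-0.05, adjusted p = 0.333), Mrpl23-ps1 (0.16, adjusted p = 0.599) and E030042O20Rik (0.69, adjusted p = 0.136). Thus 5 of 10 tested flanking loci were called, 1 higher and 4 lower, with a median log2 fold change of -0.04, beside 67.7% and -0.0041 over all loci. The antisense gene Hoxd3os1, inside the cluster, had 0, 7 and 3 fragments in WT and 22, 26 and 13 in Yme1l-/- cultures and was not tested, and Gm14396 had 4 fragments in 1 WT culture. The noncoding gene Haglr and the precursor of miR-10b were listed at 0 in every library. Their listed span, 74703248 to 74762896, was also that of the Hoxd8 and Hoxd3/Hoxd4 loci. The libraries were made from poly(A) RNA, and a 0 can also stand for a locus that was not counted. The reason for these values was not tested.

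**Figure D3:**
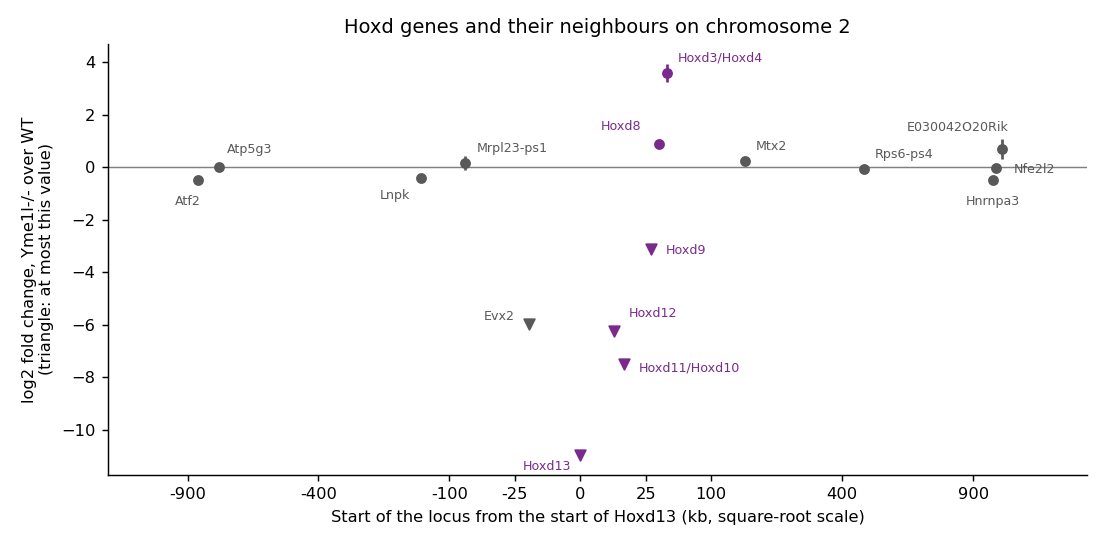
Log2 fold change (Yme1l-/- over WT) of the tested Hoxd loci (purple) and of the 10 tested flanking loci (grey). The horizontal axis is the distance of their lower coordinate, without regard to strand, from that of Hoxd13 (kb, square-root scale). Bars are the SE, and triangles are upper limits for loci at or under 3 fragments in every Yme1l-/- culture; Evx2, at -15.3 kb, lay with the posterior Hoxd genes, and the other flanking loci lay between -0.48 and 0.69.

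Because HOX proteins of the same paralog group overlap in function, the other clusters were set beside Hoxd. Hoxd supplied 57.8 to 59.8% of all Hox fragments in WT and 5.60 to 6.32% in Yme1l-/- cultures. The share of Hoxa went from 37.8 to 40.0% in WT to 17.7 to 18.5%, while that of Hoxb went from 1.75 to 2.28% to 53.9 to 54.4% and that of Hoxc from 0.217 to 0.493% to 21.3 to 22.4%. The sum of all Hox genes differed far less, 344 to 349 CPM in WT and 294 to 302 CPM in Yme1l-/- cultures.

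The group 13 paralogs of Hoxd13 moved in opposite directions. Hoxa13, which acts with Hoxd13 in the digits, had 310, 271 and 359 fragments in WT and 3, 27 and 27 in Yme1l-/- cultures (log2 fold change -4.53 ± 0.35, adjusted p = 5.66e-06). Hoxb13, known from the tail bud and prostate, rose from 0.203 ± 0.106 to 11.6 ± 0.377 CPM (5.81 ± 0.21, adjusted p = 1.33e-09). Hoxc13, known from hair and nails, rose from 0.173 ± 0.0169 to 27.3 ± 3.33 CPM (7.28 ± 0.17, adjusted p = 3.81e-11).

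Of the Hoxd12 paralogs, Hoxc12 had 1, 0 and 1 fragments in WT and 82, 93 and 123 in Yme1l-/- cultures, at least 23.95-fold higher (adjusted p = 1.35e-07). In group 11, Hoxa11, the partner of Hoxd11 in the forearm, had 1262, 1255 and 1275 fragments in WT and 1, 0 and 2 in Yme1l-/- cultures, at least 449-fold lower (adjusted p = 5.45e-12). Hoxc11 was not tested, with 4, 6 and 14 against 7, 8 and 10 fragments. The Hoxa side thus fell in this group as the Hoxd10/Hoxd11 locus did.

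In group 10, Hoxa10 fell from 31.1 ± 1.31 to 11.8 ± 0.495 CPM (log2 fold change -1.39 ± 0.06, adjusted p = 8.68e-09), and the locus joining Hoxc10 and Hoxc5 rose by 5.17 ± 0.22 on the log2 scale (adjusted p = 3.95e-09). In group 9, Hoxa9 fell from 30.2 ± 1.70 to 3.54 ± 0.392 CPM (-3.09 ± 0.09, adjusted p = 2.77e-10). Hoxb9 rose from 1.93 ± 0.463 to 66.5 ± 1.80 CPM (5.11 ± 0.11, adjusted p = 2.21e-11) and Hoxc9 from 0.153 ± 0.0619 to 9.65 ± 0.566 CPM (5.95 ± 0.20, adjusted p = 7.02e-10). Every tested group 9 to 13 gene of Hoxa was lower in Yme1l-/- cells, as the Hoxd loci were, and every tested locus with a gene of these groups in Hoxb and Hoxc was higher, where the locus of Hoxc10 also holds Hoxc5.

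Over whole clusters, beside the 33.6% of all loci called higher and 34.1% lower, 4 of 10 tested Hoxa loci were higher and 4 lower, with a median log2 fold change of 0.03. The higher ones were anterior to Hoxa9, led by the locus joining Hoxa2, Hoxa3 and Gm28308 (1.66 ± 0.11, adjusted p = 1.74e-07). All 9 tested Hoxb loci were higher (median 4.07), among them Hoxb2 (4.93 ± 0.13, adjusted p = 1.38e-10) and Hoxb3 (4.88 ± 0.13, adjusted p = 1.14e-10). All 7 tested Hoxc loci were higher (median 6.07, or 5.95 with Hoxc12 at its bound), among them Hoxc4 (6.25 ± 0.25, adjusted p = 2.68e-09) and Hoxc6 (6.07 ± 0.37, adjusted p = 1.12e-07, and 7.41 without WT culture 3, which held 6 of its 8 WT fragments). The 6 tested Hoxd loci had a median log2 fold change of -9.19 from the fit, which depends on the prior count, and of -4.69 with the 4 posterior loci at their bounds.

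**Figure D4:**
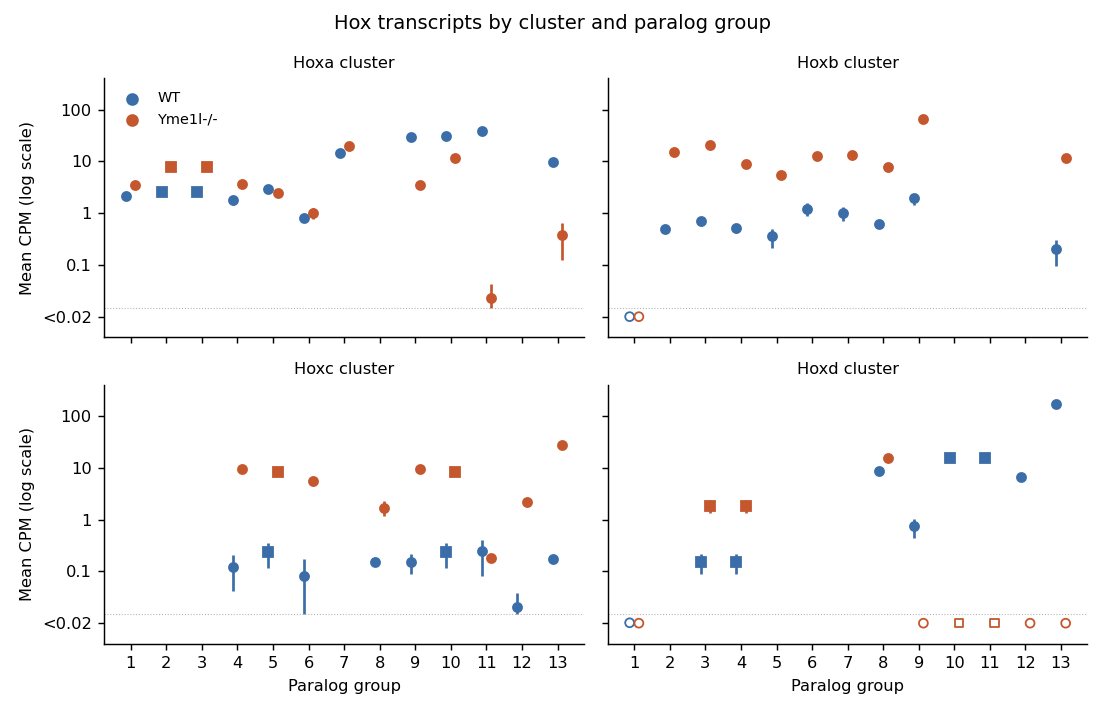
Mean CPM (log axis) of the Hox genes in WT (blue) and Yme1l-/- (orange) cultures by paralog group, 1 panel per cluster. Bars are the SD of 3 cultures, cut off at the lower end of the axis; squares are loci that join several genes, drawn once for each Hox gene they hold, and open symbols are means under 0.02 CPM, 0 included. Groups 9 to 13 of Hoxd and Hoxa were lower and those of Hoxb and Hoxc higher in Yme1l-/- cultures, except Hoxc11, which was not tested.

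HOX proteins bind DNA with the PBX proteins and with the MEIS and PREP (Pknox) proteins, so these cofactors were compared next. Of the 8 reported here, all tested, 6 were higher and 2 were not called, and their median log2 fold change was 0.90, beside 67.7% of all loci called and a median of -0.0041; the same background holds for the lists that follow. Meis1 rose from 3.82 ± 0.283 to 20.1 ± 1.64 CPM (log2 fold change 2.40 ± 0.10, adjusted p = 3.18e-09). Meis3 (1.34 ± 0.08, adjusted p = 1.11e-07) and Meis2 (1.28 ± 0.06, adjusted p = 4.81e-09) also rose. Pknox2 (0.90 ± 0.08, adjusted p = 1.54e-06), Pbx4 (0.90 ± 0.18, adjusted p = 0.000945) and the locus joining Pbx2 with Gpsm3 (0.34 ± 0.05, adjusted p = 4.61e-05) were higher. Pbx3 (-0.05 ± 0.06, adjusted p = 0.484) and Pknox1 (-0.06 ± 0.05, adjusted p = 0.326) did not pass the test.

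**Figure D5:**
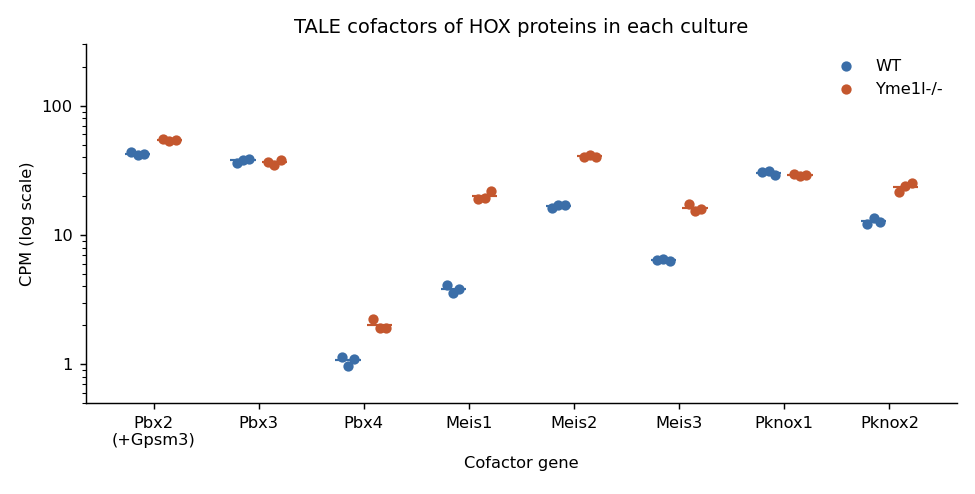
CPM (log axis) of the 8 cofactor genes reported in each culture (blue, WT; orange, Yme1l-/-), with a line at the mean of 3 cultures. The cultures of the genotypes did not overlap for the 6 called loci, nor for 71.9% of all tested loci, and they overlapped for Pbx3 and Pknox1.

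Polycomb group proteins keep silent Hox genes repressed. Of the 27 tested genes reported here, 12 were higher, 8 lower and 7 not called (median log2 fold change 0.13). Among them the chromobox genes Cbx7 (1.15 ± 0.08, adjusted p = 1.48e-07) and Cbx8 (1.10 ± 0.08, adjusted p = 5.17e-07) and the ubiquitin ligase gene Ring1 (0.79 ± 0.07, adjusted p = 1.02e-06) rose, and Phc2 (-0.98 ± 0.06, adjusted p = 6.73e-08) fell. The trithorax group, which opposes Polycomb, and architectural factors had 18 tested genes, with 5 higher, 9 lower and 4 not called (median -0.20). Among them the cohesin subunit gene Stag1 (-0.90 ± 0.05, adjusted p = 1.87e-08) and the histone demethylase gene Kdm6a (-0.73 ± 0.06, adjusted p = 1.49e-06) fell. The methyltransferase genes Kmt2d (0.70 ± 0.17, adjusted p = 0.0149) and Kmt2a (-0.67 ± 0.16, adjusted p = 0.0133) passed less firmly. The call of Kmt2a was lost without Yme1l-/- culture 1, and that of Kmt2d without WT culture 1, Yme1l-/- culture 1 or Yme1l-/- culture 3 and under the replicate block.

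Genes of limb patterning, the setting in which posterior Hoxd genes are best known, changed in both directions, with 10 higher, 11 lower and 2 not called of 23 tested (median -0.22). Sall1, a zinc finger gene of limb and kidney, had 108, 116 and 105 fragments in WT and 0 in each Yme1l-/- culture, at least 39.0-fold lower (adjusted p = 6.72e-08). The homeobox genes Alx4 (-7.30 ± 0.41, adjusted p = 4.09e-08) and Lhx9 (-6.02 ± 0.19, adjusted p = 3.81e-10) fell. For Alx4 the size rested on Yme1l-/- culture 2, which held its 4 Yme1l-/- fragments, and the fit without it gave -10.56. Grem1, a BMP antagonist of the limb bud, rose from 6.14 ± 1.56 to 400.1 ± 21.5 CPM (6.03 ± 0.16, adjusted p = 1.01e-07).

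Retinoic acid induces anterior Hox genes. Of 13 tested genes of its signalling, 4 were higher, 8 lower and 1 not called (median -1.002). The binding protein gene Crabp1 fell from 87.5 ± 9.35 to 10.4 ± 0.612 CPM (-3.07 ± 0.08, adjusted p = 1.46e-10), and Rdh10, for the first step of retinoic acid synthesis (-1.94 ± 0.09, adjusted p = 8.39e-09), and the receptor gene Rarb (-1.92 ± 0.24, adjusted p = 2.64e-05) fell too. Dhrs3, a retinaldehyde reductase, rose (3.16 ± 0.37, adjusted p = 1.73e-05) from 3, 6 and 4 fragments in WT to 30, 59 and 78 in Yme1l-/- cultures.

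Among the 5 loci whose pattern over the 6 cultures was most like that of the summed Hoxd counts were Fam171a1, Loxl2, Ttc9 and Tmem185b, with Pearson's r of log2(CPM + 0.5) from 0.99981 to 0.99995. These were lower in Yme1l-/- cultures, Fam171a1 at 73.8 ± 1.95 against 11.03 ± 0.445 CPM and Loxl2 at 49.96 ± 1.36 against 4.16 ± 0.192 CPM. The 6 cultures lie in 2 separate groups by genotype, and 818 of 9089 loci compared had an r above 0.99.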

How the data were processed

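Poly(A) RNA of 3 WT and 3 Yme1l-/- MEF cultures was sequenced from stranded paired-end libraries (100 bases). According to the study's methods and the submitters' processing notes, the authors mapped reads to mm10 with HISAT (2.0.4), assembled transcripts with StringTie (1.3.3) on Ensembl 91 and compared genotypes with Cuffdiff (2.2.1). The deposited count table holds raw fragment counts per assembled locus, not normalized, and overlapping transcripts were merged into 1 locus. How fragments mapping to several places were counted is not given in the sources used here, so near-identical paralogs could exchange fragments. The authors' second table holds 1 FPKM per genotype and the fold changes and p-values of their test, which were not used.

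The test was edgeR 4.0.16 (R 4.3.3) on the counts, with filterByExpr (minimum count 10), TMM scaling, glmQLFit with robust estimation and glmQLFTest, two-sided, without covariates. The script was tested on simulated data. Benjamini-Hochberg adjustment covered all 13867 loci, and an adjusted p under 0.05 was a call. CPM used the TMM-scaled library sizes. Each SE was derived by setting a fold change against its test statistic. Where every library of a genotype held at most 3 fragments, the fold is a lower bound against 3 fragments in the library where they weigh most. Bounds cover counting error only, since PCR copies were not identified. DESeq2 1.42.0, other scalings, filters, a replicate block and leaving out each culture were alternatives.

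The members and the gene lists were chosen with earlier results of these data known, so the calls of the members, made in the fit over all loci, are given as a description without p-values, and lists are described by counts. Named were all Hoxd genes, tested loci within 1 Mb, the cofactors, paralogs of groups 9 to 13, the 5 loci with the most similar pattern (mean of at least 10 CPM) and, of each other list, up to 4 called genes with the largest absolute fold change and at least 1 CPM in the higher genotype. Some genes are not reported here, and the cofactor and Polycomb counts leave them out. Gene models came from GENCODE M21, and promoters from RefSeq.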

Additional observations from a re-analysis of the deposited data

How the results depend on the processing

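Over 15 alternative settings, all 6 tested Hoxd loci kept their direction and call wherever they were tested, and Hoxd8 ranged from 0.82 to 0.94 and Hoxd3/Hoxd4 from 3.34 to 3.92 on the log2 scale; all loci called ranged from 8513 to 10051. A filter of at least 10 counts in every sample removes by construction any locus absent from a genotype: it left 0 Hoxd loci called lower and 1 higher, 2 Hoxa loci lower (median 0.36), 0 Hoxc loci higher, 7 limb genes lower (median 0.46) and a retinoic acid median of -0.83. A prior count of 1 gave a Hoxc median of 5.74. Upper-quartile scaling gave bounds of 1933-fold for Hoxd13 and 173-fold for Hoxd10/Hoxd11 and a summed WT level of 200.5 CPM. Counts per kb gave a rank correlation of 0.893 with the FPKM order in WT.

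Without each culture in turn, the bounds ranged from 2007 to 2909-fold for Hoxd13, 75.6 to 110-fold for Hoxd12, 179 to 260-fold for Hoxd10/Hoxd11 and 7.10 to 12.4-fold for Hoxd9, the highest without Yme1l-/- replicate 1, the shallowest Yme1l-/- library. Medians ranged from 3.99 to 4.29 for Hoxb, 5.69 to 6.65 for Hoxc and -1.20 to -0.79 for retinoic acid, and the rank correlation of levels per length in Yme1l-/- cells from 0.885 to 1. A fit with a replicate block called 9794 loci, and Hoxd8 and Hoxd3/Hoxd4 gave 0.88 and 3.58. Same-numbered cultures correlated at 0.144, -0.0939 and 0.0480. So few correlations cannot decide whether the numbers pair the cultures, and the labels do not say. Of 61 named loci outside Hoxd, 56 kept their side of the threshold in every alternative that tested them, the filter of 10 counts in every sample having removed those near 0 in a genotype; the exceptions were Kmt2a, Kmt2d, Col3a1, Dcn and Kdr. Depth limits Hoxd9, Hoxd3/Hoxd4 in WT, and Hoxd1.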
